A study of Mus musculus with 2 samples.

Results

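The 4 Hox clusters of the mouse were examined for DNA enrichment peaks in 2 libraries of E14 embryonic stem cells, an established pluripotent mouse line. Member peaks were all called peaks that overlapped 1 of 4 intervals on the mm9 build. These were HoxA with Evx1 on chromosome 6 (220 kb, 52080001 to 52300000), HoxB on chromosome 11 (230 kb, 96020001 to 96250000), HoxC on chromosome 15 (150 kb, 102740001 to 102890000) and HoxD with Evx2 on chromosome 2 (150 kb, 74470001 to 74620000). The rule found 66 of 100871 peaks, 14 of the 55292 in the control library and 52 of the 45579 in the other. Control cells carried a short hairpin RNA against GFP (shGFP, 1 library), and the other culture a hairpin against Dnmt3L (shDnmt3L, 1 library). The level of Dnmt3L was not analysed here. Genomic DNA from each culture was sonicated and enriched with a kit named Hydroxymethyl Collector. It attaches a tagged glucose to 5-hydroxymethylcytosine, whereas the sample names and the stated design speak of MeDIP and of 5-methylcytosine. The peaks are therefore called enrichment peaks, without naming the modification.

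The intervals were chosen by the width and position of peaks in these same lists, since they held wide shDnmt3L peaks. Peak number, width, score and covered length in them are thus descriptions, and with 1 library in each group no value has a replicate error and no test was made. How deeply each library was sequenced is unknown, and deeper sequencing can change how many peaks are called and how wide they are.

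Hox genes encode homeodomain transcription factors that give cells their position along the head-to-tail axis and in the limbs. The genes stand in 4 clusters that arose by duplication, and genes in matching positions of different clusters, called paralogs, share a number in their names. Low-numbered genes are used early and near the head, and high-numbered genes later and towards the tail. In embryonic stem cells the clusters are known for being held silent under Polycomb marks, with CpG-rich DNA that is largely free of methylation. Dnmt3L has no catalytic activity of its own and works as a partner of the de novo DNA methyltransferases.

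Promoter sequences give examples of the DNA just before genes of these clusters, and the CG content of the whole intervals was not measured. Each stretch below is the 150 bases before the annotated start of a gene of paralog group 4 or 13, the lowest and the highest group with a member in all 4 clusters, and capitals mark CG, the dinucleotide at which mammalian DNA is mainly methylated. They come from RefSeq on GRCm38.p6, a build other than that of the peaks, so no peak was placed on them. Table entries were matched for 5 of these 8 genes, and for Hoxa4, Hoxb13 and Hoxc13 none was matched.
Hoxd13: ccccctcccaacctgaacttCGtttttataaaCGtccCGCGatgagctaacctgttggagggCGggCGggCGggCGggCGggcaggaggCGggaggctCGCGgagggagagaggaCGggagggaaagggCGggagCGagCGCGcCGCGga
Hoxa13: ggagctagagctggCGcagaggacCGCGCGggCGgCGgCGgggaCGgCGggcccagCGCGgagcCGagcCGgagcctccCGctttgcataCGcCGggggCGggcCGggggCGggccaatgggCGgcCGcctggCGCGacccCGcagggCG
Hoxd4: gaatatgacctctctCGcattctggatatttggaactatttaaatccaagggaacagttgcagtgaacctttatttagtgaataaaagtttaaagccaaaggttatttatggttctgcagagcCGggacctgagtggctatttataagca
Hoxb4: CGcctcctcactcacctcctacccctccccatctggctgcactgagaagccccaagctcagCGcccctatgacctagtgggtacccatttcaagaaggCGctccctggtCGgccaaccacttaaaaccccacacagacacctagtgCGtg
Hoxc4: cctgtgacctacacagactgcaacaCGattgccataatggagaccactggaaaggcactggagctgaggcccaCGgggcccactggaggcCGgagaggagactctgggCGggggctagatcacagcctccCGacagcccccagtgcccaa
On GRCm38.p6 these lie at chr2:74668075-74668224 (Hoxd13, plus strand), chr6:52260881-52261030 (Hoxa13, minus strand), chr2:74721828-74721977 (Hoxd4, plus strand), chr11:96318117-96318266 (Hoxb4, plus strand) and chr15:103034245-103034394 (Hoxc4, plus strand). Each is upstream of the annotated start of its own gene, and other transcripts were not considered. The promoters of Hoxa13 and Hoxd13, genes needed for digits and the urogenital tract, held 25 and 19 CG in 150 bases. The promoters of Hoxb4 and Hoxc4 held 5 each, and that of Hoxd4 held 2.

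CG content varied widely within HoxD and HoxA, the clusters for which at least 80% of the listed genes had a promoter in the table. In HoxD all 9 genes matched, with 10 starts, and the 250 bases before a start held from 2 CG (1 of 2 starts of Hoxd11) to 31 (Hoxd13), with a median of 12.5. In HoxA 9 of 10 genes matched, also with 10 starts, and the count ran from 3 (Hoxa9) to 35 (Hoxa13), with a median of 15.5. The median over all 32851 promoters of the table was 6, and 92.1% of them held at least 1 CG. Above that median were 7 of the 10 HoxD and 8 of the 10 HoxA promoters. Evx2 and Evx1, homeobox genes that flank HoxD and HoxA, had 14 and 10. For HoxB, with 3 of 10 genes matched, and HoxC, with 1 of 9, the same summary is void because too few genes had an entry. CG was searched in this order of letters, which reads the same on both strands.

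**Figure D1:**
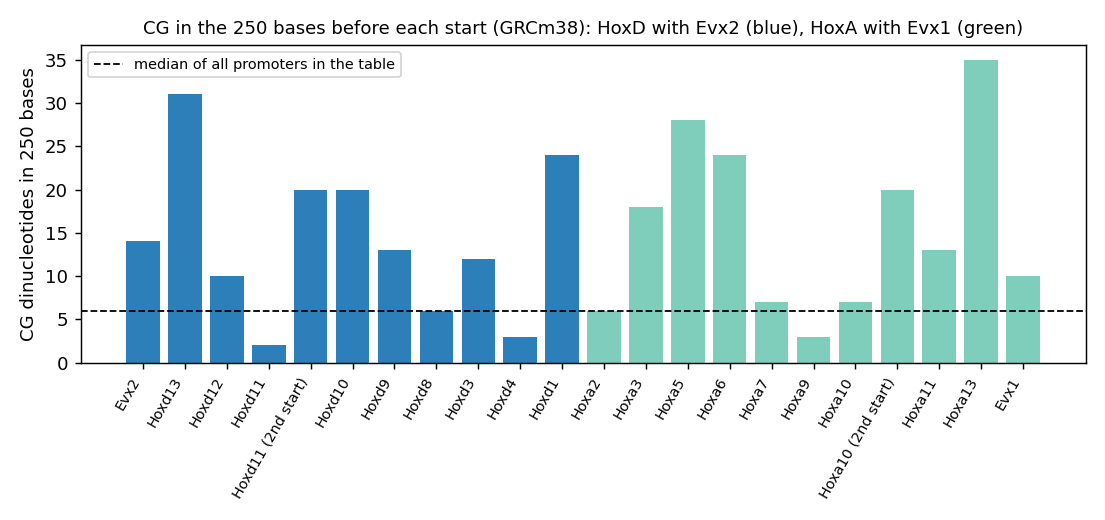
Number of CG dinucleotides (y axis) in the 250 bases before each annotated start of HoxD with Evx2 (blue) and HoxA with Evx1 (green), 1 bar per start, on GRCm38. The dashed line is the median of 6 over all 32851 promoters of the table, and the highest bars are Hoxa13 with 35 and Hoxd13 with 31.

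Across the 750 kb of the 4 intervals, peaks covered 25.9 kb in shGFP and 469 kb in shDnmt3L. That was 3.45% of the length in the control library, below the 4.48% that peaks covered over the whole genome. In shDnmt3L it was 62.6%, against 4.71% over the genome. The 4 clusters make up 0.0284% of the genome length and held 0.0219% of all peak-covered length in shGFP and 0.377% in shDnmt3L. In every cluster the shDnmt3L share was at least 55.4% and the shGFP share at most 6.37%.

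HoxD had no peak at all in the control library and was mostly covered in the other. It holds, in the gene order of the GRCm38 table, Evx2, Hoxd13, Hoxd12, Hoxd11, Hoxd10, Hoxd9, Hoxd8, Hoxd3, Hoxd4 and Hoxd1. Hoxd3 stands before Hoxd4 there by its annotated start, which has the lower coordinate, and not by paralog number. The high-numbered genes of HoxD shape the limb and digits. No shGFP peak was called in its 150 kb, whereas 10 shDnmt3L peaks covered 90.4 kb, or 60.3%. A count of 0 and a count of 10 have exact 95% Poisson intervals of 0 to 3.69 and 4.80 to 18.4. These cover counting error only, and treat neighbouring calls as independent.

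HoxC had the highest covered share in shDnmt3L. Its genes run from Hoxc13, known for hair and nail formation, to Hoxc4 with rising coordinate in the table. Peaks covered 6.31 kb, or 4.20%, in shGFP, and 110 kb, or 73.4%, in shDnmt3L. The peak numbers were 3 (0.619 to 8.77) and 16 (9.15 to 26.0).

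HoxA went from 4.94 kb in shGFP, or 2.25%, to 122 kb in shDnmt3L, or 55.4%. The cluster runs in the table from Hoxa2, a gene of hindbrain and branchial arch identity, to Hoxa13 and then Evx1. It held 3 shGFP peaks (0.619 to 8.77) and 11 shDnmt3L peaks (5.49 to 19.7).

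HoxB had the most control peaks, 8 (3.45 to 15.8), which covered 14.7 kb or 6.37%. In shDnmt3L 15 peaks (8.40 to 24.7) covered 147 kb or 63.9%. Its order in the table starts with Hoxb13, known from prostate development, goes on with Hoxb9 and ends with Hoxb1, a gene of hindbrain segment identity. HoxB thus had the largest covered length of the 4 clusters in both libraries.

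**Figure D2:**
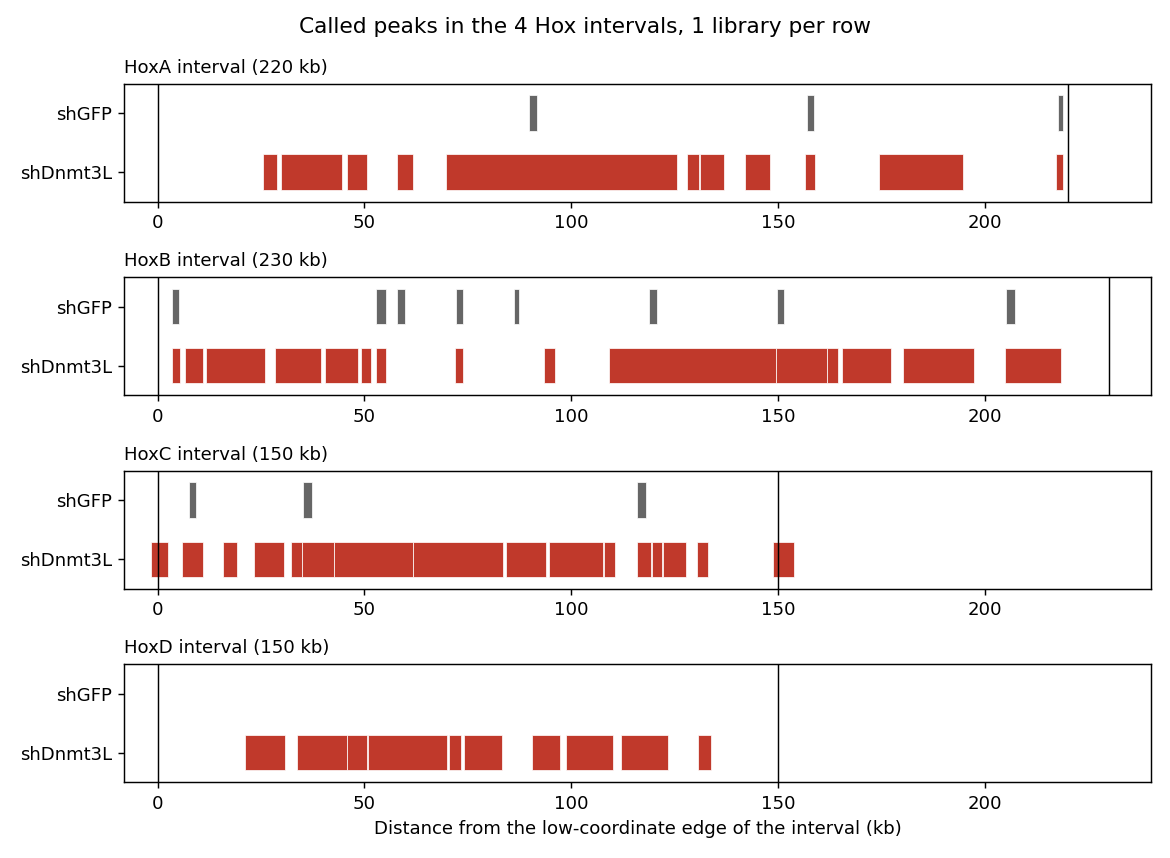
Called peaks in each interval, with distance in kb from its low-coordinate edge on the x axis and 1 row per library. Black lines mark the interval edges. The shDnmt3L rows hold long bars in all 4 clusters, whereas the shGFP rows hold 3, 8, 3 and 0 short bars.

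Averaged over the rest of each chromosome, the libraries were close. On the rest of chromosome 6, 3.57% was under shGFP peaks and 3.59% under shDnmt3L peaks. The values were 6.87% and 7.39% for chromosome 11, 4.89% and 5.07% for chromosome 15, and 4.43% and 4.87% for chromosome 2. Ratios of shDnmt3L to shGFP were thus between 1.01 and 1.10 on the rest of these chromosomes.

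The flanks differed between clusters. In the 100 kb on the low-coordinate side, the covered shares of the libraries were close for HoxA (10.5% in shGFP and 8.74% in shDnmt3L), HoxB (10.2% and 10.1%), HoxC (6.24% and 6.80%) and HoxD (1.97% and 2.30%). On the high-coordinate side they were also close for HoxA (7.76% and 7.27%) and HoxD (4.39% and 6.14%). HoxB and HoxC differed between the libraries on that side, which is the Hoxb1 and the Hoxc4 end, with 11.5% and 25.04% beyond HoxB and 4.28% and 23.4% beyond HoxC. In HoxC a shDnmt3L peak crossed that edge. In HoxB the last shDnmt3L member peak ended at 96238289, inside the edge, and the next began 17535 bp beyond it. For those clusters higher shDnmt3L coverage was thus also found outside the intervals, in both after a gap.

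**Figure D3:**
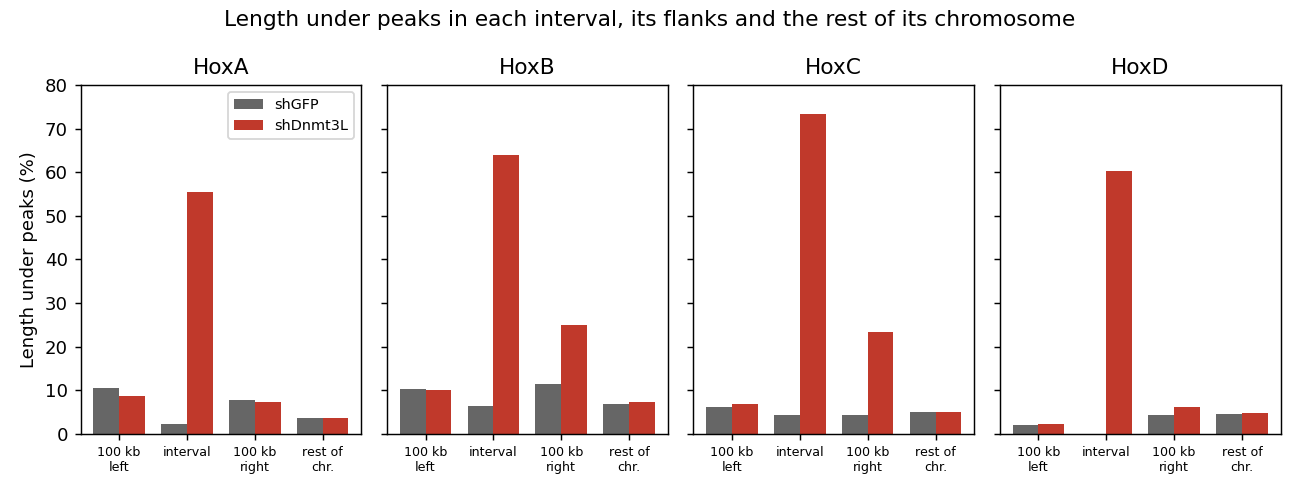
Percent of length under peaks (y axis) in the 100 kb before each interval, in the interval, in the 100 kb after it and on the rest of its chromosome, for shGFP (grey) and shDnmt3L (red), 1 library each and no error bars. Inside the intervals shDnmt3L stands at 55.4 to 73.4% and shGFP at 0 to 6.37%. Beyond the high-coordinate edge, HoxB and HoxC show higher bars in shDnmt3L.

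Peaks at the edges were few. Of the 52 shDnmt3L member peaks, 2 ran past an edge, both in HoxC. They were a 4047 bp peak that began 1517 bp before the interval and a 5166 bp peak that ended 3855 bp after it. The nearest shDnmt3L peaks wholly outside lay 1474 bp beyond the right edge of HoxD and 2901 bp before the left edge of HoxB, with widths of 2516 and 2257 bp. The members nearest to those edges were a 3223 bp peak in HoxD, which ended at 74603801, well short of the edge at 74620000, and a 2108 bp peak in HoxB from 96023443. In shGFP the nearest outside peak was 2041 bp beyond HoxD, with a width of 1143 bp.

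The wide peaks carried most of the covered length. Of the 52 shDnmt3L peaks, 17 (32.7%) were at least 10 kb wide, against a background of 0.535% of the whole shDnmt3L list. None of the 14 shGFP peaks was, against 0.0524% of the shGFP list. Width was what the intervals were chosen for, so nothing is read from these shares. The 17 peaks summed to 319 kb, which is 67.9% of the length covered in the clusters. They made up 6.97% of the 244 peaks of this width in the shDnmt3L list.

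In HoxA, 3 peaks reached 10 kb. The widest, 55722 bp from 52149804 to 52205525, had width rank 2 among all 45579 peaks of its list. A 20326 bp peak from 52254316 to 52274641 lay on its high-coordinate side, which is the Hoxa13 and Evx1 side. A 14636 bp peak from 52109877 to 52124512 lay on the Hoxa2 side. The 55.7 kb peak made up most of the middle of the interval, where 89.5% of the middle 1 of 3 equal parts was under shDnmt3L peaks against 2.64% under shGFP peaks.

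HoxB had 7 peaks of at least 10 kb, more than any other cluster. They began at 96031666 (14206 bp) and 96048381 (11081 bp) near the Hoxb13 end of the interval, and, in the other block, at 96129072 (40295 bp, width rank 3 in its list), 96169426 (12467 bp), 96185412 (11887 bp), 96200201 (17148 bp) and 96224843 (13447 bp). Those of the second block followed each other over the high-coordinate part of the interval. Between the blocks lay 53.8 kb, from 96075283 to 96129071, in which the covered lengths of the libraries were close. This stretch was cut from the end of a shDnmt3L peak to the start of another, which favours low shDnmt3L coverage in it. There 3 shGFP peaks covered 4.73 kb (8.79%) and 2 shDnmt3L peaks 4.48 kb (8.32%). Their positions mostly differed, since only the shGFP peak from 96092161 overlapped a shDnmt3L peak. In the table Hoxb13 is followed by Hoxb9, and the stretch between them is known to be long. Whether it is this stretch was not tested, since no gene coordinates of the mm9 build were used.

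In HoxC, 3 peaks of at least 10 kb stood almost end to end. They were 19016 bp from 102782689, 21791 bp from 102801804 and 13065 bp from 102834555, with a 9857 bp peak from 102824115 between the latter pair. The middle 1 of 3 equal parts of this interval was covered to 97.6% in shDnmt3L and to 0% in shGFP, the fullest contrast in any such part of the 4 intervals. Neighbouring calls were often separated by very little, with a smallest gap of 7 bp and a median of 583 bp, so the number of peaks here depends on where the caller broke the signal.

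In HoxD, 4 peaks reached 10 kb, at 74503707 (11989 bp), 74520894 (19084 bp), 74568672 (11318 bp) and 74582061 (11361 bp). The rest of its 10 peaks included 9600 bp from 74491173 and 9285 bp from 74544088. The first 21.2 kb of the interval, on the Evx2 side, had no peak in either library. From there the gaps between neighbouring peaks were 73 to 7157 bp, the narrowest range of the 4 clusters. The covered share was 51.6%, 80.1% and 49.1% in its 3 equal parts, from the Evx2 to the Hoxd1 end.

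Along the clusters the difference was examined in windows of 10 kb. Of the 75 windows, 45 were covered by at least 50 percentage points more in shDnmt3L, and none by as much more in shGFP. Over the whole genome, 0.304% of 263984 windows were called in the first direction, or 1.4% of the 57445 with a peak in either list, and 0.00606% in the second. By cluster, 12 of 22 windows were called in HoxA, 14 of 23 in HoxB, 10 of 15 in HoxC and 9 of 15 in HoxD. The shares were alike, between 54.5% in HoxA and 66.7% in HoxC.

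Coverage was higher in shDnmt3L in 64 windows, equal in 9 and lower in 2. The 9 equal windows had no peak in either library. Both windows with the opposite sign were in HoxB, in the part between its blocks and at its edge, with differences of -2.12 and -12.34 percentage points (shDnmt3L minus shGFP). In shGFP no window exceeded 42.2%, and 59 of 75 were empty. Empty windows are common, since over the whole genome only 57445 of 263984 had a peak in either list. In shDnmt3L 19 windows were covered to at least 99%, and 10 were empty. Windows at least 99% covered in shDnmt3L and empty in shGFP numbered 63 in the genome, and 13 of them (20.6%) lay in the Hox intervals, several under the same peak.

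**Figure D4:**
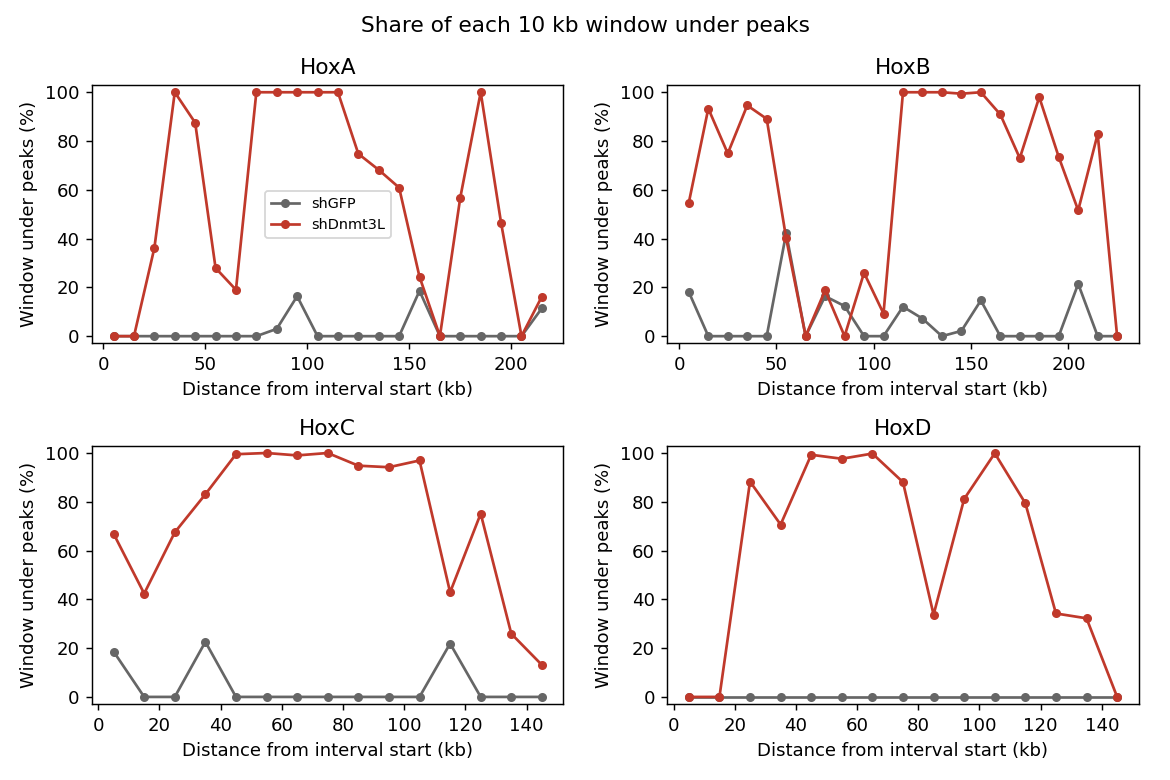
Percent of each 10 kb window under peaks (y axis) against distance from the interval start in kb (x axis, window centres), for shGFP (grey) and shDnmt3L (red). The shDnmt3L line reaches or nears 100% in the middle of HoxA, HoxC and HoxD and forms 2 blocks in HoxB, whereas the shGFP line stays at or below 42.2%.

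Joining shDnmt3L peaks over gaps of up to 10 kb gave 1 long domain per cluster in HoxA, HoxC and HoxD, and 2 in HoxB. The HoxC domain spanned 135 kb (102738484 to 102872986, 15 peaks) and ranked 9th of 26106 domains by covered length. The HoxA domain of 133 kb (52105426 to 52238902, 9 peaks) ranked 11th, and the HoxD domain of 113 kb (74491173 to 74603801, 10 peaks) ranked 16th. In HoxB the larger domain of 109 kb (96129072 to 96238289) ranked 12th, and the other, of 82.6 kb, began before the interval at 95992722 and ranked 48th. The clusters also held shorter shDnmt3L domains, the longest 20.3 kb in HoxA (52254316 to 52274641, ranked 608th) and 8.84 kb in HoxC. Joined in the same way, the longest shGFP domain in any of the clusters was 6.86 kb, in HoxB. All 4 clusters were thus among the 16 domains with the most covered length in shDnmt3L.

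The control peaks were ordinary in size and mostly overlapped a shDnmt3L peak. Their widths ran from 1146 to 2366 bp with a median of 1860 bp, against 1998 bp in the whole list, and their median score was 81.4 against 96.3. The score is the authors' own value per peak and ranks peaks within its list only. Of the 14, 12 overlapped a shDnmt3L peak, and 2 (14.3%) did not, against a background of 25.5% of the shGFP list. Since shDnmt3L peaks covered 62.6% of the intervals, overlap is likely by position alone, and nothing is read from this count. Every one of the 12 had a wider partner. The shDnmt3L list was wider as a whole, with a median of 2376 bp against 1998 bp. How often partners were wider over all shared peaks was not computed, so nothing particular to Hox is read from this.

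The partners were of 2 kinds. For 4 control peaks the partner was at least 10 kb wide. The 1937 bp HoxA peak from 52169702, whose score exceeded that of 69.9% of its list, lay inside the 55.7 kb peak, and the 1929 bp HoxB peak from 96138793 lay inside the 40.3 kb peak. HoxB peaks of 1679 bp from 96169786 and 2146 bp from 96225012 lay at the low-coordinate end of partners 7.43 and 6.27 times as wide. These 4 control peaks filled between 3.48% and 16.0% of their partners.

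For the other 8 the partner was 1.04 to 3.41 times as wide, with a median of 1.36. HoxA peaks of 1858 bp from 52236857 and of 1146 bp from 52297687 had partners of 2435 and 1626 bp. The HoxB partners were closest in width. The control peaks were 2366 bp from 96072865, 1640 bp from 96092161, which was the strongest control peak of all 4 clusters with a score of 234, and 1809 bp from 96023400, with partners of 2463, 1881 and 2108 bp. HoxC peaks of 1862 bp from 102747536, 2258 bp from 102775149 and 2187 bp from 102855982 had partners of 5083, 7704 and 3328 bp. The unpartnered control peaks, 1855 bp from 96077869 and 1234 bp from 96106247, both lay between the HoxB blocks, with the nearest shDnmt3L peaks 2586 and 5943 bp away.

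Most shDnmt3L peaks in the clusters had no control peak under them. This held for 40 of 52 (76.9%), where the whole shDnmt3L list had 12.6%, and for 30 of 41 once peaks within 500 bp were merged. The intervals were chosen from these lists, so this count too is only a description. Of the 17 peaks of at least 10 kb, 13 had no partner, against 42.6% of all 244 such peaks. By cluster the unpartnered peaks were 8 of 11 in HoxA, 9 of 15 in HoxB, 13 of 16 in HoxC and 10 of 10 in HoxD. For HoxD the nearest shGFP peak was 18240 to 82064 bp away from each of them.

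Widths and scores ranked high within the shDnmt3L list. The 52 peaks were 1626 to 55722 bp wide with a median of 5761 bp, against 2376 bp in the list, and 49 of them exceeded that list median. By cluster the median width was 4919 bp in HoxA, 8058 bp in HoxB, 5125 bp in HoxC and 9443 bp in HoxD. Scores ran from 57.6 to 3100 with a median of 381, against 99.1 in the list. Of the 52, 29 were in the highest 10% of scores and 11 in the highest 1%. None of the 14 shGFP peaks was in the highest 10% of its own list.

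Set against peaks of like width, however, most of the wide Hox peaks that could be compared scored below the middle. Score rises with width in both lists. Among shDnmt3L peaks within 10% of its own width, the 21791 bp HoxC peak, with a score of 1346, and the 19084 bp HoxD peak, with 1032, had the lowest scores of 15 and 21 peaks. For the 19016 bp HoxC peak, with 1048, 4.35% of 23 peaks were lower. The widest HoxA and HoxB peaks had no other peak of like width and were among 19 peaks tied at a score of 3100, which may be a ceiling. Of the 15 wide Hox peaks that had others of like width, 11 scored below the middle of them, and the 20326 bp HoxA peak, with 1554, and the 11081 bp HoxB peak, with 896, were among those above it.

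Score per kb, formed from the same scores and widths, went the same way. Its median was 61.8 for the 17 wide Hox peaks, with a range of 54.1 to 82.2. For the 227 wide shDnmt3L peaks elsewhere it was 77.0, with a range of 32.1 to 291. The widest HoxA and HoxB peaks, both at a score of 3100, are included, and a ceiling there would lower their score per kb. Among wide peaks with no control partner the medians were 61.8 for the 13 in Hox clusters and 67.7 for the 91 elsewhere. The median width of the 13 was 14206 bp and that of the 91 was 12424 bp. The Hox peaks were thus wide with a moderate score for their width, and the ranges overlapped.

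**Figure D5:**
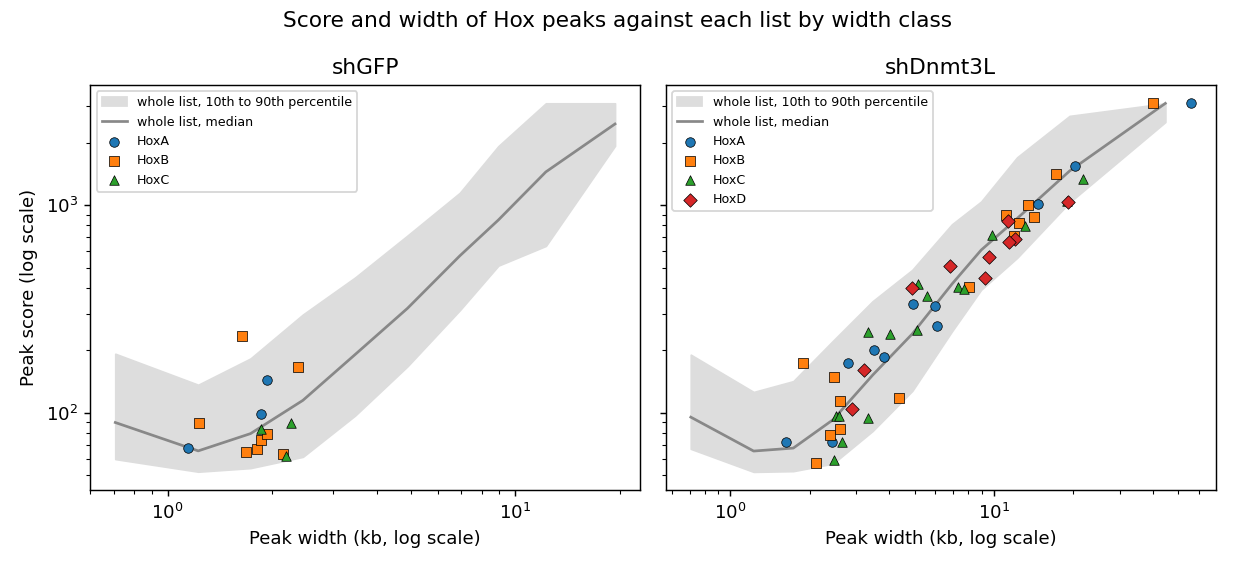
Peak score (y axis, log scale) against peak width in kb (x axis, log scale) for the Hox peaks of each list, with the median (line) and the 10th to 90th percentile (band) of the whole list by width class. The shGFP peaks sit between 1.15 and 2.37 kb, and the shDnmt3L peaks run up to 55.7 kb, with the HoxD and HoxC peaks near 20 kb at the low side of the band.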

How the data were processed

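Each library was represented by 1 list of peaks with a position, a name and, in column 5, a score. The score is the value that the deposited files give each peak, and its scale was read from the values as the form MACS of that generation writes. Build mm9 and the tools MACS 1.4.1, Bowtie 0.12.7 and CASAVA 1.8 are named, without roles, per the submitters' processing notes. Depth, any input control and the handling of duplicates were not given in the sources used here.

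Positions follow the files, counted from base 1. A peak belonged to an interval, or was shared between lists, from an overlap of 1 bp. Covered length was clipped to the interval. Windows of 10 kb tiled each chromosome from its first base to the end of its last peak, which also stood for its length. Peaks named singly were the 10 widest shGFP peaks, all shDnmt3L peaks of at least 10 kb and the widest and strongest per cluster. Other named peaks, and the HoxB stretch, were chosen after their values were seen. The members and lists were chosen with earlier results of these data known. Gene order came from the RefSeq table of GRCm38 and was taken to hold on mm9, with no coordinates converted. Python 3.11.15, numpy 2.4.6, pandas 2.3.3, scipy 1.17.1 and matplotlib 3.10.9 were used. The coverage code was tested on simulated data. Alternatives covered score, list length, merging, membership, overlap, interval edges, windows, widths and joining gaps.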

Additional observations from a re-analysis of the deposited data

How the results depend on the processing

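Of 93 alternative values for 16 results, 80 stayed within 1.5 times the value reported, 13 moved beyond it and none reversed. Reversed means a change of sign, which only the differences in covered length could show. Counts and domain lengths cannot be negative. With lists of equal length no Hox value changed, since all 14 shGFP peaks were kept. At a score of 100 or more, 3 shGFP peaks were left, 0 of them without a partner. With intervals 20 kb longer at both ends there were 23 and 4. Without the widest shDnmt3L peak of each cluster the difference in covered length was 61.2 kb in HoxA, against 117 kb, and 307 kb over all 4 clusters, against 443 kb. Windows of 5 and 20 kb gave 92 and 25 calls, since their number changes with their size. Peaks of at least 5 kb numbered 29 and of at least 20 kb 4, by the definition of the class. With a joining gap of 5 kb the longest domain was 78.3 kb in HoxA and 62.2 kb in HoxD, and with 20 kb it was 246 kb in HoxB and 285 kb in HoxC. Merging peaks within 500 bp left 41 shDnmt3L peaks, 30 of them without a partner, and asking for 50% of the peak to be covered left 46 of 52 without one. Settings added after seeing the data narrowed the shDnmt3L peaks by the ratio of median widths, 0.841, which gave a difference of 369 kb, or kept only those in the highest 10% of scores, which gave 374 kb. No paired analysis was possible because neither group holds more than 1 library. Depth, which is unknown, limits how many weak peaks could be called in either library.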
